A study of Mus musculus with 5 samples.

Results

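In the PABPC1 eCLIP list of a mouse germ cell line, 15 genes described here each carried 10 or more peaks. A peak was counted for the gene named beside it in the deposited table, and only where it lay wholly between the listed start and end of that gene. By this rule 1980 genes had at least 1 peak, and 18 of them (0.909%) reached 10. Insl3, Pabpc1 and Hnrnpa2b1 were among the 18 and are not described here, which leaves the 15. Slc2a3, Hsp90b1, Piwil1, Dazl, Sparc and Nedd4 were also set aside, and none of these 6 reached 10 by the rule. The 15 genes were chosen by their number of PABPC1 peaks, so that number, and every other PABPC1 value given for them, is a description and not a test.

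The study mapped where PABPC1, a cytoplasmic protein that binds poly(A) tails, and CCT3, part of the chaperonin TRiC, sit on RNA. The cells were GC-2spd(ts), a mouse line labelled as spermatocyte cells and, as general knowledge, immortalised with SV40 large T antigen and a temperature-sensitive p53. In eCLIP, RNA crosslinked to a protein is trimmed with RNase, recovered with an antibody and compared with an input library of the same lysate. The samples were 1 PABPC1 immunoprecipitate with its input and 2 CCT3 immunoprecipitates (CCT3 and CCT3-2, which carry the same library name) with 1 input, all from this 1 line and with no treatment stated. PABPC1 binds the poly(A) tail at the 3′ end of messenger RNAs, where it contacts translation initiation factors and deadenylases. It can also touch A-rich stretches elsewhere in a transcript. In male germ cells many messenger RNAs are stored before they are translated, and poly(A)-binding proteins belong to the machinery that handles them.

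The PABPC1 list held 14092 peaks, of which 4122 (29.3%) lay inside the span listed beside them, because the table names the gene of the nearest transcription start and a single transcript of it. With protein-coding RefSeq gene spans in place of the listed transcript, 85 genes reached 10 peaks, all 15 described here among them and 70 more. Each peak has the authors' log2 fold, taken as immunoprecipitate over input, and −log10 p; the PABPC1 and CCT3-2 columns are unnamed and were read so from their ranges. There was 1 PABPC1 list and no replicate, and read depth was not given in the files used here, so no difference in PABPC1 values has a replicate check. Intervals on shares are Wilson 95% intervals and cover counting error only. Neighbouring peaks are not independent. The handling of duplicate reads is not given, so reads may not be independent molecules. Of the meiotic spermatocyte markers, 22 of 30 had a PABPC1 peak in their RefSeq span, as did 13 of 15 spermatid, 7 of 11 Sertoli, 5 of 7 Leydig and 11 of 17 fibroblast markers, against 25.6% of 21896 protein-coding genes. The CCT3 list held a peak for 1 Sertoli marker and for none of the others, against 9.56% of protein-coding genes. Hspa2 is among the spermatocyte markers and Cldn11 among the Sertoli markers, and the part that other cell types play in these peaks was not tested.

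The 15 genes held 189 peaks, 4.59% of all peaks that passed the rule, on 11 chromosomes. The counts were 16 in Cntd1, 15 in Atxn7l3b, 14 each in Dynll2, Hnrnpa0 and Ppp1cb, 13 each in Aplp2, Boll, Hspa2, Rnf138 and Sod3, 11 in Cldn11, and 10 each in 4930524B15Rik, Sdc4, Selenow and Tbc1d1. Those 4 genes with 10 peaks stood just inside the threshold. Just outside it, with 9 peaks each, were the 8 genes Alkbh5, Gm3086, Gstm1, Ormdl3, Ptms, Smurf1, Srp14 and Wnk1.

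The peaks of these genes lay almost wholly in 3′ UTRs. The deposited annotation placed 182 of the 189 peaks there (96.3%, 92.6 to 98.2%), against 1409 of 1944 peaks (72.5%, 70.5 to 74.4%) in the 461 genes with 3 to 9 peaks. In 12 of the 15 genes every peak was annotated as 3′ UTR, as in 257 of the 461 genes with 3 to 9 peaks. The 7 other peaks belonged to Rnf138 (3), Selenow (3) and Ppp1cb (1).

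Neighbouring peaks stood close together, and many touched. Over 174 neighbouring pairs the median gap was 18.5 bases (middle range 0 to 68), against 43 bases (1 to 209.5) over 1483 pairs in genes with 3 to 9 peaks. In 58 pairs (33.3%, 26.8 to 40.6%) the next peak began at the base after the last one ended. The same was true of 364 pairs (24.5%, 22.4 to 26.8%) in the genes with 3 to 9 peaks. A further 18 pairs of the 15 genes were 1 to 10 bases apart, 42 were 11 to 50 apart, 21 were 51 to 100 apart, and 34 were more than 100 apart, 6 of them more than 1000. Each of the 15 genes had at least 1 touching pair. In 1 pair, in Cntd1, the peaks overlapped on opposite strands. Number and spacing come from the same list, so the shorter gaps are not independent of the rule.

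**Figure D1:**
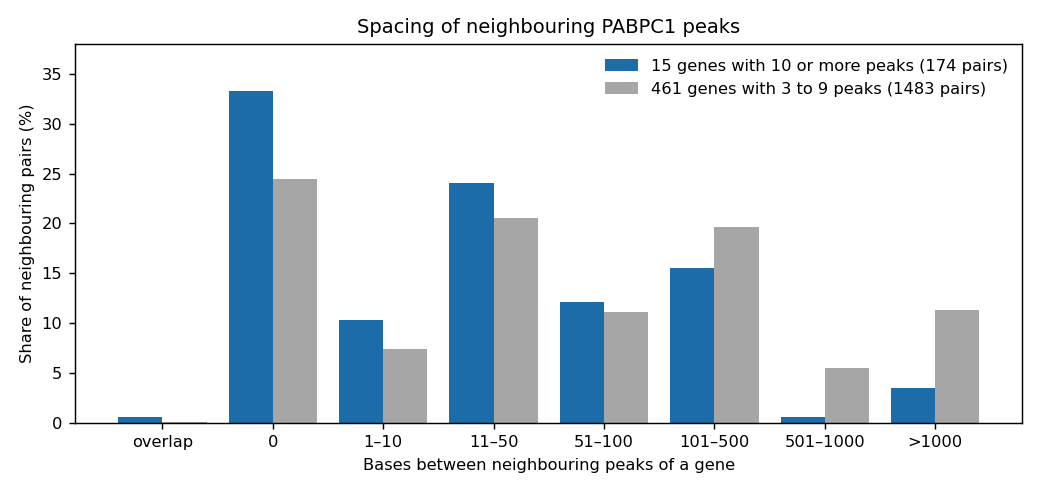
Share of neighbouring PABPC1 peak pairs (y axis, percent) by the number of bases between them (x axis), for the 15 genes (blue) and for genes with 3 to 9 peaks (grey). Touching pairs are the largest class in both, at 33.3% and 24.5%, and gaps over 1000 bases make up 3.45% and 11.3%.

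The count of peaks therefore depended on how an enriched stretch was cut into pieces. When touching peaks of the same strand were joined, the 189 peaks became 131 and 5 of the 15 genes still had 10 or more (Cntd1, over both strands, with Dynll2, Hnrnpa0, Ppp1cb and Rnf138). When peaks up to 10 bases apart were joined, 113 remained, at 3 to 12 per gene with a median of 7, and only Dynll2 with 12 and Ppp1cb with 10 reached the threshold. Hspa2 changed most, with 3 joined stretches in place of 13 peaks. Dynll2 changed least, with 12 in place of 14. The lists were not cut in the same way. Touching peaks numbered 1946 in the PABPC1 list (13.8% of its peaks) and 2767 in CCT3-2 (14.8%), whereas the CCT3 list had none and its smallest gap was 6 bases. Numbers of peaks per gene are for this reason not on 1 scale between the PABPC1 and CCT3 lists.

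**Figure D2:**
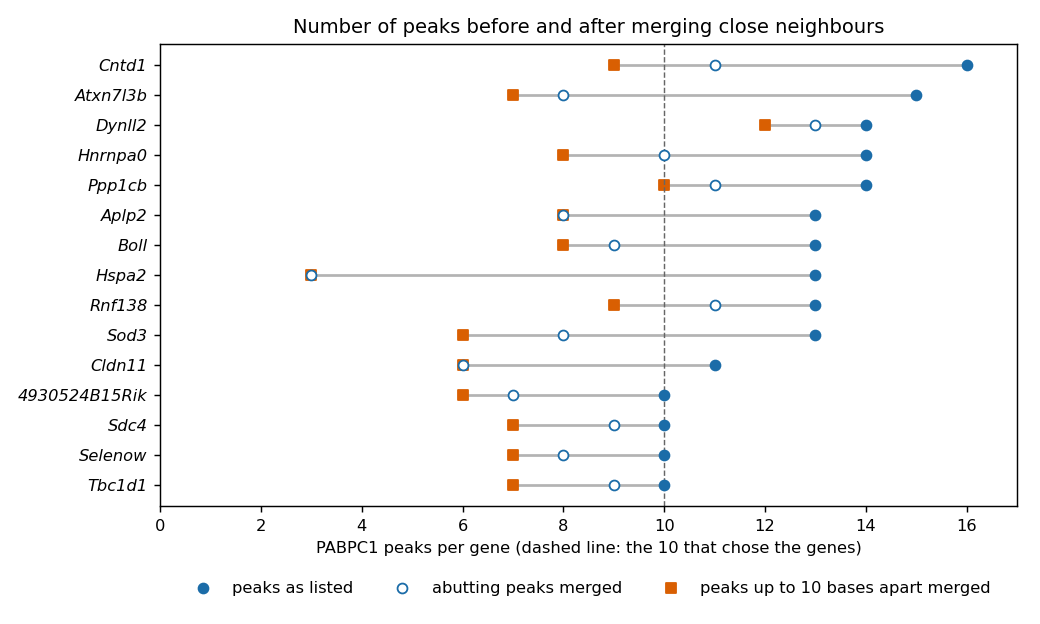
PABPC1 peaks per gene (x axis, count) for each of the 15 genes: as listed (filled circles), with touching peaks joined (open circles), and with peaks up to 10 bases apart joined (squares). The dashed line marks the 10 peaks of the rule, which Dynll2 and Ppp1cb alone reach in the last form.

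Folds of close neighbours were somewhat more alike than those of neighbours farther apart. The median absolute difference in the authors' log2 fold was 0.54 for the 76 same-strand pairs up to 10 bases apart (middle range 0.23 to 0.84). It was 0.83 (0.34 to 1.52) for 63 pairs at 11 to 100 bases and 0.72 (0.27 to 1.32) for 34 pairs farther apart. These ranges overlap, and touching pieces could still differ by up to 2.19 log2 units. The median width of a peak was 34 bases (5 to 93), against 45 (1 to 184) in genes with 3 to 9 peaks.

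The 3′ UTR peaks of a gene spanned a median of 1293 bases (order-statistic 95% interval 687 to 1472), from the first base of the first peak to the last base of the last. The 15 genes are all that the rule left and not a random sample, so this interval is descriptive and covers no replicate. In the 361 genes with 3 to 9 peaks and at least 2 in 3′ UTRs the median span was 395 bases. A span can only widen as peaks are added, so this difference is not independent of the rule. Among the 15, the span was under 1000 bases in 6 genes, 1000 to below 2000 in 8 and 2000 or more in 1. The shortest spans were 372 bases in Hspa2, 582 in Rnf138, 607 in 4930524B15Rik and 687 in Sod3. The widest were 2645 in Selenow, 1731 in Dynll2, 1481 in Ppp1cb and 1472 in Hnrnpa0. The place of Selenow rests on 1 peak that lies 2309 bases upstream of its 6 others. Without that peak its span was 311 bases, shorter than that of Hspa2. Peaks covered a median of 41.2% of the span, at a median of 1.11 peaks per 100 bases. Hspa2 was the densest, with 76.3% covered and 3.49 peaks per 100 bases. Selenow was the sparsest, with 0.265 peaks per 100 bases, over the span that includes its far peak. Of 167 pairs of neighbouring 3′ UTR peaks, 140 (83.8%) were at most 100 bases apart, against 701 of 1019 (68.8%) in genes with 3 to 9 peaks. Chains with no larger gap numbered 1 in Hspa2 and Rnf138 and 2 to 5 in the other genes of the 15. Spans were measured along the genome over peaks kept by the rule, and UTR boundaries were not used. In Rnf138 the rule kept 13 peaks, against 17 in its RefSeq span, so its span and chain could differ with all of them.

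**Figure D3:**
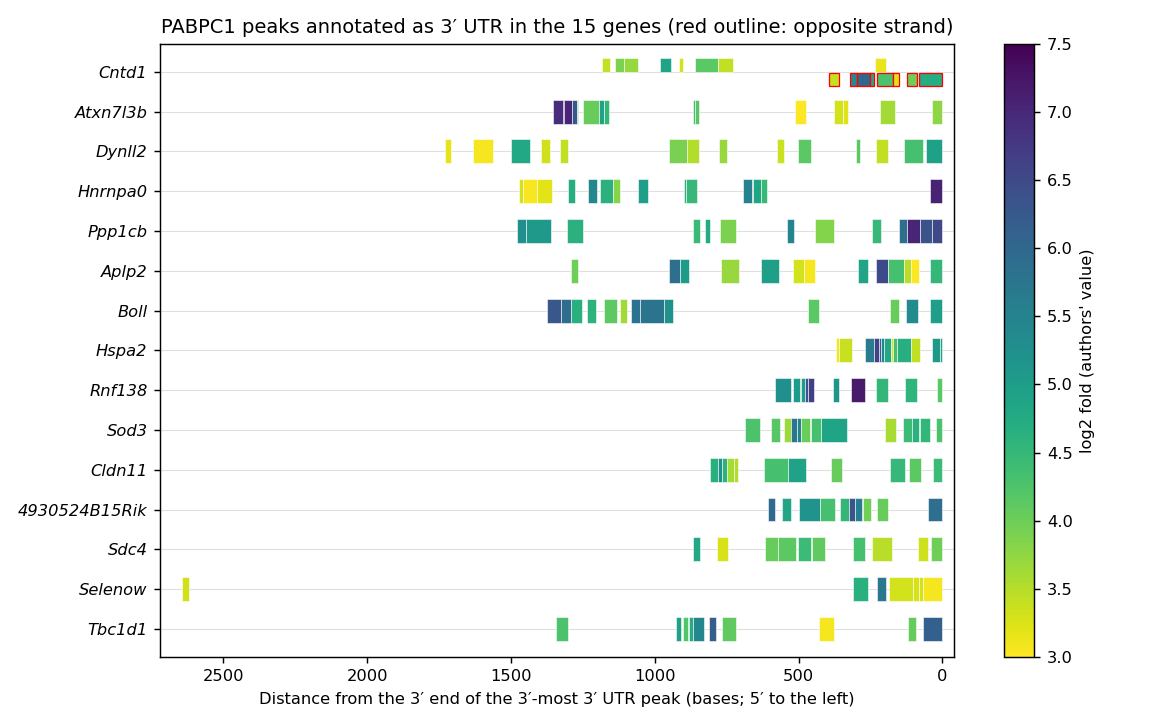
PABPC1 peaks annotated as 3′ UTR in the 15 genes, placed by their distance in bases (x axis) from the 3′ end of the gene's 3′-most such peak, 5′ to the left. Each block is a peak drawn to its width and coloured by the authors' log2 fold; blocks outlined in red lie on the strand opposite to Cntd1. The Hspa2 peaks fill a short stretch, whereas those of Dynll2, Ppp1cb and Hnrnpa0 are spread over 1731, 1481 and 1472 bases.

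Peaks came close to the 3′ end of many genes but were not limited to it. On the strand of the gene, the 3′-most peak ended within 50 bases of the end of the RefSeq span in 7 of the 15 genes. These were Hnrnpa0 (9 bases), Aplp2 (11), Selenow (19), Cldn11 (20), Tbc1d1 (39), Dynll2 (40) and Atxn7l3b (45). In 4 more (Hspa2, Cntd1, Sdc4 and Sod3) it ended 76 to 301 bases away. In 4930524B15Rik, Rnf138, Ppp1cb and Boll it ended 576, 833, 964 and 25524 bases away. From the end of the listed transcript the distances in these genes were 572, 136, 7 and 20432 bases. By that measure Sod3 and Cntd1 were farther, at 1981 and 7704 bases. Only peaks kept by the rule entered these distances. The RefSeq span of Rnf138 held 17 PABPC1 peaks against the 13 kept, so its 3′-most peak may lie nearer the end. The peak with the highest log2 fold was the 3′-most in Dynll2 and Hnrnpa0, the 5′-most in Boll, Sdc4 and Selenow, and lay between in the other 10.

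Hspa2 encodes the testis HSP70, a chaperone that spermatocytes need to complete meiosis in mice. It lies on the plus strand of chromosome 12, at 76403812 to 76406938 (gene ID 15512, mm10). Its 13 peaks fell in 1 block of 372 bases that ended 76 bases before the 3′ end, and 10 of its 12 pairs touched. The longest joined stretch held 9 pieces over 190 bases. Along it the log2 fold was 5.65 and then 6.62 at the highest peak (76406624 to 76406640), and lower on its 3′ side, with 3.42 in the last piece. The authors' −log10 p stood at 400, the ceiling of the list, in 10 of the 13 peaks, more than in any other of the 15 genes.

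Boll, the DAZ-family RNA-binding protein boule, is needed for spermatid development in mice. The gene is on chromosome 1, minus strand (gene ID 75388). Its 13 peaks, all annotated as 3′ UTR, spanned 1374 bases at 55269090 to 55270463. The 9 peaks on the 5′ side had log2 folds of 3.63 to 6.28, the highest in the 5′-most peak. A gap of 471 bases set them apart from the other 4, whose log2 folds were 4.05 to 5.34. The block lay 20432 bases before the 3′ end of the listed transcript, although the table annotates each peak as 3′ UTR.

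Cntd1, a cyclin-like protein required for crossover formation in mouse meiosis, was the gene with most peaks, but only 8 of its 16 were on its own strand. Cntd1 lies on the plus strand of chromosome 11 (gene ID 68107, RefSeq span 101279203 to 101288701). Its RefSeq span overlaps by 444 bases with that of Becn1, an autophagy gene that the table places on the minus strand. The 8 plus-strand peaks spanned 987 bases with log2 folds of 3.15 to 4.87 (median 3.56). The 8 minus-strand peaks spanned 395 bases, all inside Becn1, with log2 folds of 3.23 to 6.02 (median 4.50). The highest peak listed for Cntd1 was thus on the strand of Becn1, and counted by strand Cntd1 had 8 peaks and fell short of the 10. The other 14 genes had no peak on the opposite strand.

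Among RNA-binding and splicing factor genes, 23 of a list of 67 had a peak inside the listed gene, against 8.57% of the 21896 protein-coding genes. Hnrnpa0, described here, reached 10, as did Hnrnpa2b1, which was set aside with 11 peaks. Over RefSeq spans 57 of the 67 had a peak, against 25.6% of protein-coding genes. Inside the listed gene, 18 of 42 poly(A) and translation genes, 9 of 33 chaperone genes, 9 of 32 cytoskeleton and adhesion genes, 7 of 25 transporter genes and 4 of 24 cell cycle genes had a peak. Over RefSeq spans the counts of these lists were 31 of 42, 29 of 33, 23 of 32, 15 of 25 and 14 of 24. None of these 5 lists held a gene of the 15, but the lists are selections and not whole classes. Pabpc1, in the poly(A) and translation list, reached 10 with 12 peaks and was set aside. Hspa2 is not in the chaperone list, and Dynll2, Sdc4 and Cldn11 are not in the cytoskeleton and adhesion list. Hnrnpa0 encodes an hnRNP that binds AU-rich elements and lies on the minus strand of chromosome 13 at 58125879 to 58128556 (gene ID 77134). Of its 14 peaks, 13 fell at 618 to 1466 bases from the 3′ end, with log2 folds of 3.04 to 5.52. The last stood alone, 565 bases farther on and 9 bases from the end, and had the highest fold of the gene at 7.07.

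Atxn7l3b, a paralogue of the SAGA deubiquitinase adaptor Atxn7l3, had 15 peaks over 1354 bases on the minus strand of chromosome 10 (gene ID 382423, 112925428 to 112929026). The 5 peaks on the 5′ side touched one another in a stretch of 88 bases, and 4 of them had log2 folds of 6.93, 7.05, 7.03 and 6.27. The 5 peaks nearest the 3′ end, the farthest of them 521 bases from it, had the lowest folds, 3.01 to 3.77. All 15 had a −log10 p of at least 33.3, and 7 stood at the ceiling.

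Ppp1cb, a catalytic subunit of protein phosphatase 1 (plus strand of chromosome 5, gene ID 19046), had 13 3′ UTR peaks over 1481 bases and 1 exon peak 3591 bases before them. Its 4 last peaks, at most 2 bases apart, formed a stretch of 150 bases with log2 folds of 5.85, 7.03, 6.35 and 6.53. This stretch ended 7 bases from the end of the listed transcript, at 32492756, and 964 bases from the end of the RefSeq span. Rnf138, a ubiquitin ligase of the DNA damage response (plus strand of chromosome 18, gene ID 56515), had 10 3′ UTR peaks over 582 bases, with the highest log2 fold of the 15 genes at 7.19. Its 3 other peaks, upstream in exons or the promoter class, had log2 folds of 3.39 to 3.52, below every one of its 3′ UTR peaks (4.16 to 7.19). The table named Rnf138 for 4 more peaks outside the listed spans. Its RefSeq span held 17 PABPC1 peaks, so the 582 bases and the 10 3′ UTR peaks hold only for peaks kept by the rule. Tbc1d1, a Rab GTPase-activating protein of glucose transporter trafficking (plus strand of chromosome 5, gene ID 57915), had 10 peaks over 1343 bases. Its 2 highest folds stood apart, at 6.18 in the peak at 64350635 to 64350661 and at 6.13 in the 3′-most peak.

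Dynll2, a light chain of the dynein motor (minus strand of chromosome 11, gene ID 68097), had 14 peaks over 1731 bases, with gaps of 0 to 352 bases. Its median gap of 56 bases was the largest of the 15, followed by 55 in Ppp1cb, 51.5 in Rnf138 and 32.5 in Aplp2. Only 1 of its 13 pairs touched. Its log2 folds were 3.07 to 4.92, with the highest in the 3′-most peak.

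The smallest median gaps were 0 bases in Hspa2, 0.5 in Atxn7l3b, 3 in Sod3 and 4 in Cntd1, the last over both strands. Sod3, the extracellular superoxide dismutase (plus strand of chromosome 5, gene ID 20657), had 13 peaks over 687 bases with log2 folds of 3.59 to 5.73. Of its 12 pairs, 7 were within 10 bases, and 6 peaks joined into a stretch of 219 bases.

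Cldn11, Sdc4 and Aplp2 each had every peak in the 3′ UTR. Cldn11, a tight junction claudin of Sertoli cells and oligodendrocytes (plus strand of chromosome 3, gene ID 18417), had 11 peaks over 809 bases with log2 folds of 3.52 to 5.26. Sdc4, a heparan sulfate proteoglycan of focal adhesions (minus strand of chromosome 2, gene ID 20971), had 10 peaks over 869 bases with log2 folds of 3.28 to 4.81, the lowest maximum of the 15 genes. Aplp2, a paralogue of the amyloid precursor protein (minus strand of chromosome 9, gene ID 11804), had 13 peaks over 1293 bases with log2 folds of 3.02 to 6.50. It was the 1 member among 35 listed matrix and secreted protein genes, of which 6 had a peak inside the listed gene and 19 over RefSeq spans. 4930524B15Rik (plus strand of chromosome 11, gene ID 67592), for which no role is given here, had 10 peaks over 607 bases with log2 folds of 3.97 to 6.33. In each of the other genes the lowest fold was below 3.97.

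Selenow encodes a selenoprotein whose selenocysteine is read through an element in the 3′ UTR. It lies on the minus strand of chromosome 7 at 15917208 to 15922371 (gene ID 20364) and had 7 peaks in the 3′ UTR, 2 in exons and 1 in the promoter class. Of the 7, 6 fell within 311 bases at the 3′ end and 1 lay 2309 bases upstream of them. The peak with the highest log2 fold, 6.63, was at the other end of the gene, at 15922272 to 15922330. It covered genomic bases 42 to 100 counted from the RefSeq 5′ end, and exon boundaries were not used. The listed 5′ end lay farther upstream, at 15922402. The next highest log2 folds were 5.69 and 4.65 in the 3′ UTR, and the 7 other peaks had 3.06 to 3.61. A RefSeq promoter window was at hand for 12 of the 15 genes, and this was the 1 peak that shared bases with one. Its first 9 bases are shown in capitals at the end of the 30 transcribed bases that lead into it (chr7:15922322-15922351, minus strand, GRCm38.p6, from RefSeq), to show where this 5′ peak begins.
Selenow 5′ end: cgctcagagcttgaggtccttGTTGCTTGT

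Folds varied widely within each gene. Over the 189 peaks the median log2 fold was 4.43 (3.01 to 7.19), against 4.19 (highest 11.43) in genes with 3 to 9 peaks. The median of a gene ranged from 3.31 in Selenow and 3.60 in Dynll2 to 5.01 in Rnf138 and 5.03 in 4930524B15Rik. The highest fold of a gene had a median of 6.33 (4.81 to 7.19), against 5.19 in genes with 3 to 9 peaks, which had fewer peaks to draw a maximum from. The 5 highest were Rnf138 at 7.19, Hnrnpa0 at 7.07, Atxn7l3b at 7.05, Ppp1cb at 7.03 and Selenow at 6.63. The −log10 p was at the ceiling of 400 in 26 peaks (13.8%), in 8 of the genes, against 147 peaks (7.56%) in the genes with 3 to 9 peaks.

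**Figure D4:**
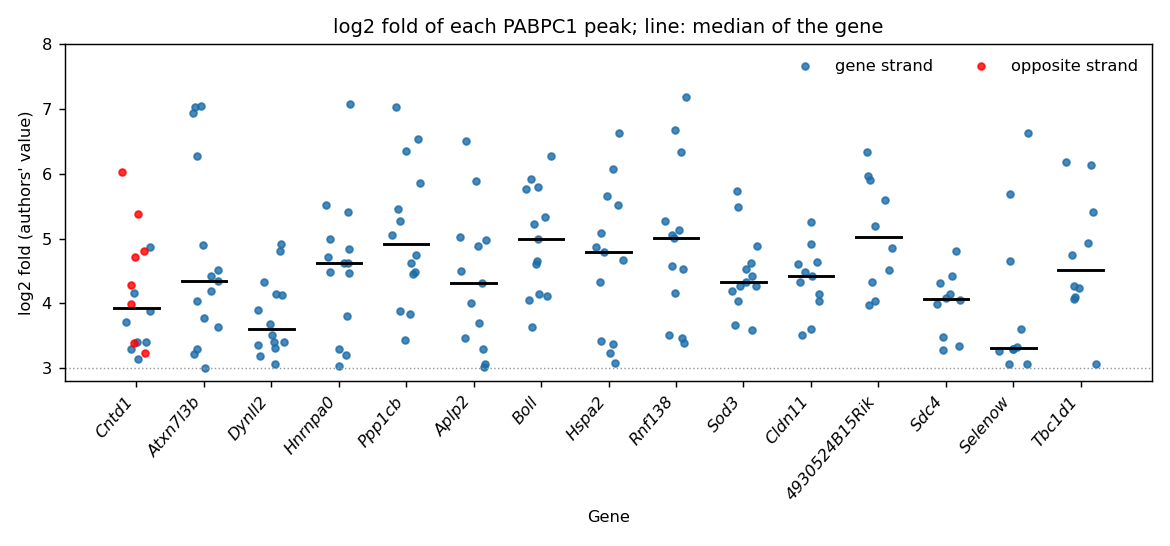
The authors' log2 fold (y axis) of each PABPC1 peak in the 15 genes (x axis), with the median of each gene as a line and peaks on the strand opposite to the gene in red. The lowest peak of a gene lies between 3.01 (Atxn7l3b) and 3.97 (4930524B15Rik), and the highest between 4.81 (Sdc4) and 7.19 (Rnf138).

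The CCT3 lists were not used to choose the genes. By the same rule 2 of the 15 genes, Atxn7l3b and Tbc1d1, had a CCT3 peak, against 8.59% of the 1980 genes with a PABPC1 peak and 9.11% of those with 3 to 9 peaks. In the CCT3-2 list 1 of the 15, Atxn7l3b, had a peak, against 11.2% of the 1980. With 15 genes these shares are near the background. The Tbc1d1 peak was in an exon, 29420 bases from the nearest PABPC1 peak, its log2 fold was 4.07 and its −log10 p 3.6.

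Atxn7l3b carried peaks of both proteins in separate stretches of the gene. It had 15 PABPC1 peaks with log2 folds of 3.01 to 7.05, 7 CCT3 peaks with log2 folds of 3.06 to 3.70, and 11 CCT3-2 peaks with log2 folds of 2.90 to 3.81. None overlapped a PABPC1 peak. The PABPC1 peaks ended 43 to 1363 bases from the 3′ end of the listed transcript. The CCT3 peaks ended 1616 to 3333 bases from it and the CCT3-2 peaks 1613 to 3328, upstream of every PABPC1 peak. The nearest CCT3 and CCT3-2 peaks were 219 and 216 bases from the 5′-most PABPC1 peak, whose log2 fold was 6.93. All 15 PABPC1 peaks, 5 of the 7 CCT3 peaks and 7 of the 11 CCT3-2 peaks were annotated as 3′ UTR. The CCT3 lists share a library name and the first has no strand, so they are not treated as independent measurements. PABPC1 and CCT3 were read in separate libraries, so peaks of both on the same RNA molecule are not shown.

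**Figure D5:**
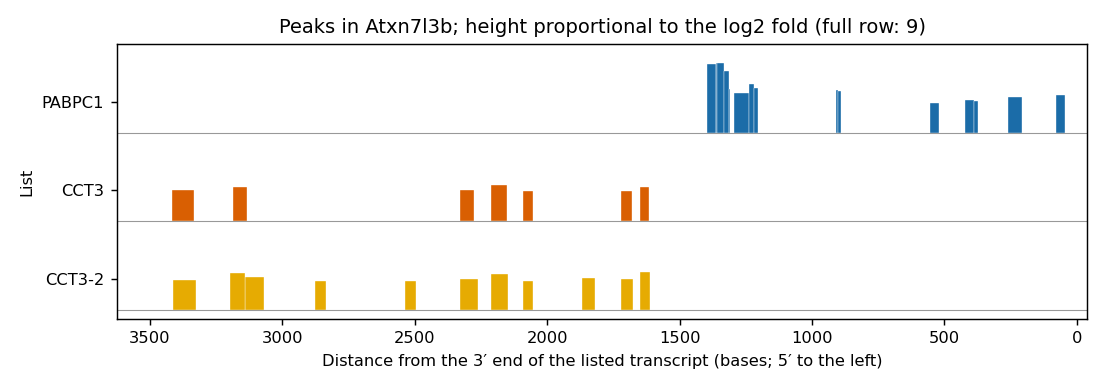
Peaks of the PABPC1, CCT3 and CCT3-2 lists along Atxn7l3b, by distance in bases from the 3′ end of the listed transcript (x axis, 5′ to the left), with block height proportional to the authors' log2 fold. The 15 PABPC1 peaks lie on the 3′ side and the 7 CCT3 and 11 CCT3-2 peaks on the 5′ side, with no overlap.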

How the data were processed

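eCLIP peak lists of GC-2spd(ts) cells were used, 1 each for the PABPC1, CCT3 and CCT3-2 samples; the inputs entered only through the authors' folds. Per the submitters' processing notes, bcl2fastq 2.20 and the build mm10 were used, and the aligner, peak caller, annotation tool and handling of duplicates and of reads that map to several places remain not given in the sources used here. The deposited −log10 p values are the authors' and run to 400. The deposited log2 fold values are the authors', taken as immunoprecipitate over input; the PABPC1 and CCT3-2 columns are unnamed and were read so from their ranges. The deposited peak width, another measure, is in bases.

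Peaks were kept for the listed gene where they lay inside its listed start and end. Gaps, spans and joined stretches were computed with Python 3.11.15, pandas 2.3.3, numpy 2.4.6 and scipy 1.17.1, after the functions were checked on simulated peaks. Figures used matplotlib 3.10.9. Gene spans came from RefSeq (GRCm38.p6, the same build), and gene IDs matched for all 15 genes. No p-value was computed, as PABPC1 has 1 list. The genes, gene lists and settings were chosen with earlier results of these data known. Every gene chosen is named, and described in full where it was among the highest or lowest for number of peaks, gap, span or fold or had a CCT3 peak. The sequence of 3′ UTR peaks was not analysed here.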

Additional observations from a re-analysis of the deposited data

Results flagged for a closer look

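The strand column, which entered no count of the rule, showed 8 of the 16 Cntd1 peaks on the strand opposite to the gene, all inside the overlapping Becn1 span, and none in the other 14 genes. In genes with 3 to 9 peaks 93 of 1944 peaks were on the opposite strand.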

How the results depend on the processing

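For 6 results 44 alternatives were computed, and 25 fell inside the 95% interval of the reported value or within 1.5 times the reported count. At a log2 fold of at least 4 and a −log10 p of at least 5, 6 genes had 10 or more peaks, 100% of their peaks were in 3′ UTRs and 0 of the 15 genes kept a CCT3 peak, as fewer peaks pass. With the listed name for all peaks, 93 genes reached 10, with a 3′ UTR share of 87.6%, a median span of 1477 bases and 75.1% of 3′ UTR pairs within 100 bases. Joining peaks up to 10 bases apart left 2 genes, with a median gap of 66.5 bases, a median span of 1606 and 68.4% of pairs within 100 bases, since short gaps are removed. With 8 or more peaks there were 35 genes and a 3′ UTR share of 90.2%. From midpoint to midpoint the median gap was 60.5 bases, as widths are then included. Pairs within 50 and 200 bases were 71.3% and 92.2%. The CCT3-2 list gave 1 gene in place of 2. Of the settings chosen after seeing the data, RefSeq spans gave 85 genes and joining up to 5 bases gave 3. Other causes were not tested. No paired analysis was possible because PABPC1 has 1 list and nothing was tested. Read depth is unknown, so a gene with few peaks is not shown to be less bound.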
